A study of Homo sapiens with 12 samples.

Results

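The genes described here are 9 transcriptional targets of p53, taken by symbol from a table of raw counts for 58735 genes: MDM2, MDM4, BTG2, GADD45A, SESN1, TP53INP1, ZMAT3, RRM2B and FAS. Each symbol matched 1 row, and all 9 genes were among the 16646 genes with enough counts to be tested. The data are polyA RNA-seq of C4.2B, a line descended from LNCaP that models human prostate cancer resistant to castration, with 3 libraries (A, B and C) in each of 4 arms. Cells received vehicle (DMSO), 0.25 µM of ipatasertib, which inhibits AKT (AKTi), 1 µM of tazemetostat, which inhibits EZH2 (EZH2i), or both drugs at those doses (combination). Cells of the EZH2i and combination arms had been exposed to tazemetostat for 6 days beforehand, whereas the AKTi and DMSO arms had no such exposure to it. Cells of all 4 arms, DMSO included, had been moved to medium with 10% charcoal-stripped FBS, which is depleted of steroid hormones, and were collected 24 hours later. All values come from this single line, so they describe C4.2B cells only.

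p53 is a transcription factor that is kept scarce in unstressed cells by MDM2, a ubiquitin ligase that marks it for destruction, and is held inactive by the related protein MDM4. When p53 is stabilized it binds response elements near its targets and raises genes that stop the cell cycle, restrain growth signalling, supply nucleotides for repair or promote cell death. MDM2 is itself a target, which closes a feedback loop. Several of these targets also answer to other regulators: SESN1, GADD45A and the BTG1 relative of BTG2 are known targets of FOXO factors, which AKT keeps out of the nucleus, and GADD45A and BTG2 respond to many stresses. EZH2 is the enzyme of Polycomb repressive complex 2 that places the H3K27me3 mark on silenced genes. mRNA levels measure neither the amount nor the activity of p53.

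Most of these genes were higher in the combination, but not the p53 inhibitors and not the death receptor. SESN1 rose 9.33-fold against DMSO, TP53INP1 5.06-fold, BTG2 3.02-fold, GADD45A 2.39-fold and ZMAT3 2.27-fold, and RRM2B rose 1.19-fold (edgeR quasi-likelihood test, adjusted p of 0.00044 or smaller for each). FAS fell to 0.441 of its DMSO level. MDM2 was slightly lower, at 0.912 of DMSO, and MDM4 did not pass the test. Thus 6 of the 9 genes were higher and 2 were lower, where 38.0% of all genes tested were higher in the combination and 35.2% were lower. With library-size scaling the counts over all genes went from 6320 higher and 5866 lower to 7574 and 4749. The median log2 fold change of the 9 was 1.18, and that of all genes tested was 0.06. The direction of the small MDM2 difference depends on the scaling.

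The sequences that tie these genes to p53 are response elements, which are built from a pair of adjoining half-sites. RefSeq promoter windows (GRCh38.p14, from 250 bases before to 50 bases after an annotated transcription start) were available for 6 of the 9 genes, 14 windows in all, and were searched on both strands for the p53 response element of 20 bases without a spacer, allowing up to 3 mismatches. A match was found in windows of MDM2, SESN1 and FAS, and 6.39% of the 27305 genes with a window held a match of this quality. That share is not a like-for-like background. The 6 genes were taken because they are p53 targets, and most of them have more than 1 window, each a further chance of a match. Whether elements are more frequent among them than among all genes was therefore not tested. The 4 elements are shown because they mark 1 gene that rose, 1 that fell and the gene of the feedback loop. Each is written 5′ to 3′ on the strand of its gene, capitals are bases that match the element's consensus and lower-case letters are mismatches.
MDM2 element, 94 bases before a start: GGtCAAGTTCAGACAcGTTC
MDM2 second element, 56 bases before that start: AGttAAGTCCtGACTTGTCT
SESN1 element, 49 bases before a start: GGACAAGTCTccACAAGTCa
FAS element, 122 bases before a start: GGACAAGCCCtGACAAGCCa
The MDM2 elements lie at chr12:68808923-68808942 and chr12:68808961-68808980 on the plus strand, with 2 and 3 mismatches. Both sit in an intron of the canonical GENCODE v44 transcript, ahead of an internal start, and in no exon of the 6 MDM2 transcripts that span them. The SESN1 element lies at chr6:109009018-109009037 on the minus strand, has 3 mismatches and is also intronic in both transcripts that span it. The FAS element lies at chr10:88991309-88991328 on the plus strand, has 2 mismatches, is intronic in the canonical transcript and is exonic in 8 of the 46 FAS transcripts that span it. The gene ACTA2 also spans this position. GADD45A, TP53INP1 and RRM2B had no window and were not searched. The FOXO motif GTAAACA, searched on both strands of the same windows, was in none of the windows of the other 6 genes. It was in 4.19% of all genes with a window, so finding none among 6 does not set these genes apart. The elements and the motif are matches of letters, and binding was not measured here.

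Per-library values below are the deposited normalized counts, in which each library's raw counts are divided by its size factor. Fold changes come from edgeR's quasi-likelihood test of the raw counts over all 12 libraries, with p-values adjusted by Benjamini-Hochberg over all genes tested. The study's methods describe plates seeded in triplicate, but the labels do not tie libraries A, B and C to separate plates, so the p-values measure the spread between libraries, which may be technical. All 10 luminal prostate markers checked, among them KLK3 and HOXB13, were detected at a mean of 10 or more normalized counts in every arm. Their summed level was 74727 to 78979.7 in DMSO and 144221.5 to 148599.6 in the combination. KLK3 made up most of that increase, with a mean of 22384 in DMSO and 63415 in the combination, whereas the means of HOXB13 (6925 and 4732), EPCAM (2069 and 1665) and CDH1 (12352 and 11943) were lower in the combination. In contrast, 4 leukocyte markers summed to 1.13 to 26.8 per library over all arms. The summed level of 5 fibroblast markers was 81.4 to 121 in DMSO, 75.8 to 108 under AKTi, 279.7 to 318 under EZH2i and 179 to 253 with both drugs, and that of 3 endothelial markers was 35.6 to 47.8, 56.4 to 70.6, 92.9 to 105 and 82.0 to 118. The fibroblast sum was mostly COL1A1 and was higher with tazemetostat, the endothelial sum was mostly VWF and was above DMSO in all treated arms, and their part in the results was not tested. Total counts ranged from 14133755 to 22276417 per library. In RNA from bulk cells, a change in the makeup of the culture and a change of RNA within each cell cannot be told apart.

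**Figure D1:**
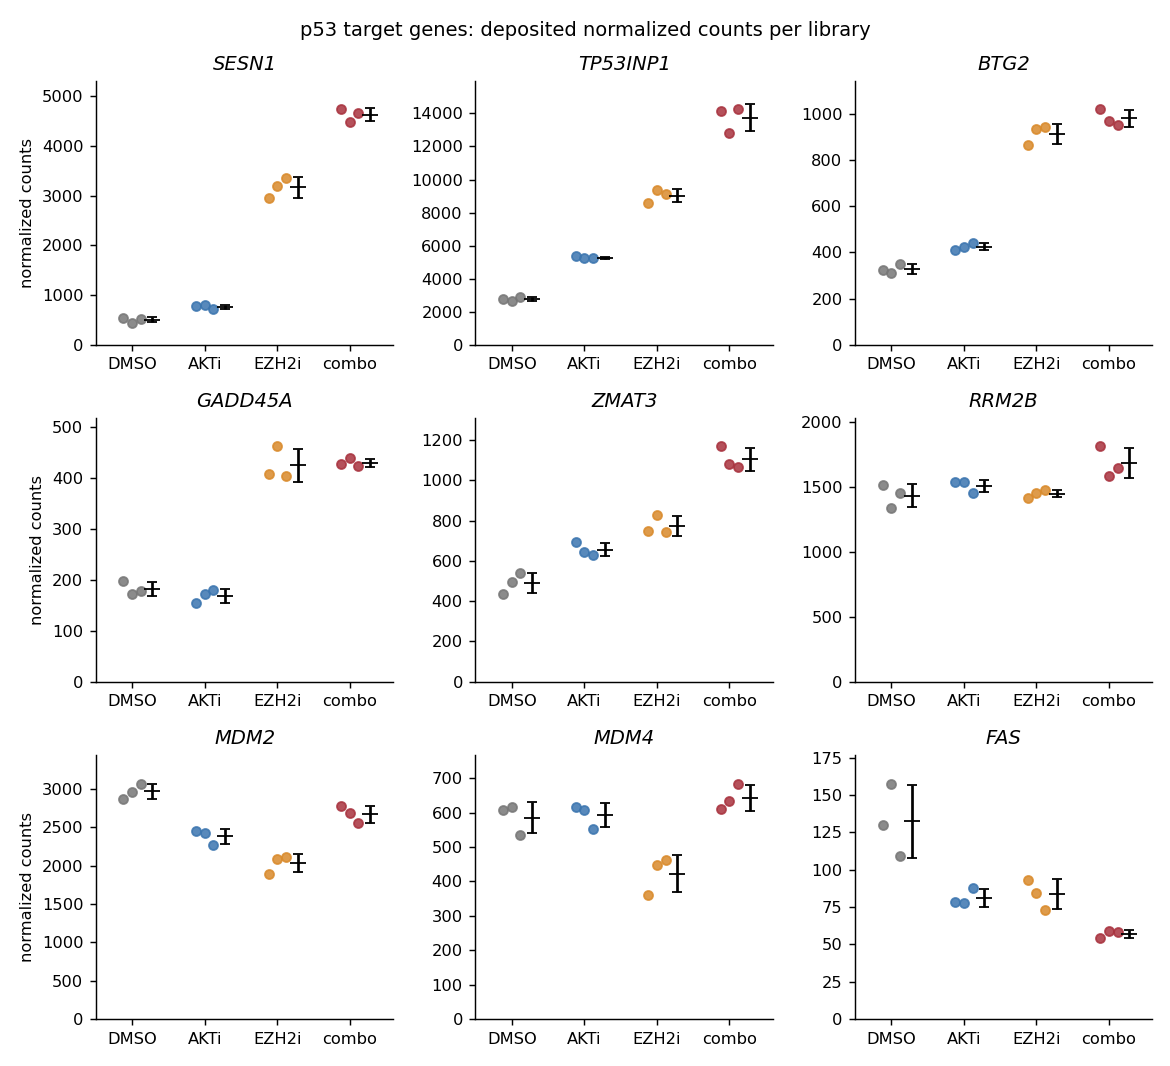
Deposited normalized counts (y axis, from 0) of the 9 genes in each of the 12 libraries, by arm (combo is the combination). Points are libraries A, B and C from left to right, and the black bar beside them is the mean ± SD (n = 3). For SESN1, TP53INP1, ZMAT3 and BTG2 the 4 arms do not overlap and climb from DMSO through AKTi and EZH2i to the combination. FAS steps down, and MDM2 is lowest in EZH2i. The share of all genes whose arms do not overlap was not counted, so the overlaps given here and for each gene below have no background.

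MDM2 (ENSG00000135679, hg38 chr12:68808176-68850686) was read at 2872, 2962 and 3069 normalized counts in the DMSO libraries. It stood at 2456, 2418 and 2262 under AKTi, at 1895, 2091 and 2111 under EZH2i, and at 2769.6, 2686 and 2551 with both drugs. Every treated library lay below every DMSO library, and the combination lay between the single agents and DMSO without overlapping either. MDM2 fell under AKTi (log2 fold change -0.31, SE 0.057, adjusted p = 2.6e-05) and fell further under EZH2i (-0.53, SE 0.057, adjusted p = 2.0e-10). In the combination it differed from DMSO by -0.13 (SE 0.056, adjusted p = 0.032), and it was higher there than under AKTi (0.18, adjusted p = 0.0070) and EZH2i (0.40, adjusted p = 2.4e-07). The call against DMSO was lost without DMSO library C (adjusted p = 0.073), without combination library C (0.13) and with at least 10 counts required in every library (0.28), and with scaling by library size only the difference was 0.063. The call against AKTi was lost without AKTi library A (adjusted p = 0.053), without AKTi library C (0.11) and with a filter of 1 count in total (0.063).

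MDM4 (ENSG00000198625, chr1:204516379-204558120), the partner that holds p53 inactive without being an efficient ligase itself, was lowered in 1 arm. Its normalized counts were 608, 615 and 535 in DMSO, 617, 608 and 553 under AKTi, 361, 447 and 462 under EZH2i, and 612, 634 and 685 with both drugs. The EZH2i libraries lay below all others, and those of the other 3 arms overlapped. MDM4 fell under EZH2i by 0.45 on the log2 scale (SE 0.091, adjusted p = 5.1e-05). AKTi differed from DMSO by 0.03 (95% interval -0.15 to 0.21, adjusted p = 0.82) and the combination by 0.16 (-0.01 to 0.33, adjusted p = 0.10). With ipatasertib added to tazemetostat, MDM4 was 0.61 higher than with tazemetostat alone (SE 0.090, adjusted p = 5.7e-07). The combination was called above DMSO with scaling by library size only (0.36), by upper quartile (0.34) and with at least 10 counts required in every library (0.23, adjusted p = 0.020).

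BTG2 (ENSG00000159388, chr1:203305491-203309602) encodes an antiproliferative protein that slows the passage from G1 to S phase. It was read at 325, 311 and 350.3 normalized counts in DMSO, 409, 426 and 439 under AKTi, 865, 934 and 945 under EZH2i, and 1021, 972 and 952 with both drugs. No EZH2i or combination library overlapped DMSO or AKTi, and the combination libraries lay just above those of EZH2i. BTG2 rose by 0.38 under AKTi (SE 0.083, adjusted p = 0.00032), 1.48 under EZH2i (SE 0.077, adjusted p = 1.0e-18) and 1.59 in the combination (SE 0.077, adjusted p = 3.2e-20). The combination exceeded EZH2i by 0.11 (95% interval -0.03 to 0.25), which did not pass the test (adjusted p = 0.20) but was called with upper-quartile scaling (0.18, adjusted p = 0.032).

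GADD45A (ENSG00000116717, chr1:67685061-67688338), a stress sensor that inhibits the mitotic kinase complex of CDK1 and takes part in DNA repair, followed tazemetostat. Its normalized counts were 197, 172 and 177 in DMSO and 154, 173 and 181 in AKTi. They were 408, 462 and 403 in EZH2i and 427, 439 and 423 in the combination. Both arms with tazemetostat lay above both arms without it, and within each of these pairs the libraries overlapped. GADD45A rose by 1.23 under EZH2i (SE 0.11, adjusted p = 8.8e-13) and 1.26 in the combination (SE 0.10, adjusted p = 2.4e-13). AKTi differed from DMSO by -0.09 (95% interval -0.32 to 0.14, adjusted p = 0.56), and the combination from EZH2i by 0.03 (-0.16 to 0.22, adjusted p = 0.84).

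SESN1 (ENSG00000080546, chr6:108986437-109094819) encodes sestrin 1, which restrains the growth kinase mTORC1 when amino acids or redox balance fail. It was read at 544, 439.8 and 521 normalized counts in DMSO and at 773, 794 and 720.3 in AKTi. In EZH2i it reached 2949, 3184 and 3362, and in the combination 4736, 4486 and 4670.5. No 2 arms overlapped. SESN1 rose by 0.61 under AKTi (SE 0.074, adjusted p = 1.7e-08), 2.66 under EZH2i (SE 0.069, adjusted p = 1.1e-27) and 3.22 in the combination (SE 0.069, adjusted p = 8.4e-31). The combination exceeded EZH2i by 0.56 (SE 0.059, adjusted p = 5.6e-10) and AKTi by 2.61 (SE 0.067, adjusted p = 6.3e-28). By size of change in the combination it ranked 566 among the 16646 genes. An antisense transcript that overlaps SESN1 held 0.328% as many counts as SESN1.

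TP53INP1 (ENSG00000164938, chr8:94925972-94949411) encodes a stress-induced nuclear protein that works in autophagy and favours p53 phosphorylation. Its normalized counts were 2736, 2630.5 and 2889 in DMSO, 5341, 5264 and 5219 under AKTi, 8582, 9376 and 9114 under EZH2i, and 14171, 12834 and 14253 with both drugs. No 2 arms overlapped here either, and among the 9 genes TP53INP1 had the largest response to AKTi. It rose by 0.95 under AKTi (SE 0.055, adjusted p = 1.9e-16), 1.72 under EZH2i (SE 0.056, adjusted p = 7.1e-25) and 2.34 in the combination (SE 0.056, adjusted p = 1.7e-29). The combination exceeded AKTi by 1.39 (SE 0.054) and EZH2i by 0.62 (SE 0.053, adjusted p = 2.7e-12). NDUFAF6, on the opposite strand, spans the whole gene and held 4.61% as many counts.

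ZMAT3 (ENSG00000172667, chr3:179017223-179072279) encodes an RNA-binding zinc finger protein that controls splicing and mRNA stability downstream of p53. It was read at 438, 497 and 538 normalized counts in DMSO, 693, 646 and 630.0 under AKTi, 750.5, 829 and 741 under EZH2i, and 1168, 1079 and 1065 with both drugs. The arms did not overlap, and the gap between AKTi and EZH2i was the narrowest. ZMAT3 rose by 0.42 under AKTi (SE 0.081, adjusted p = 5.0e-05), 0.66 under EZH2i (SE 0.079, adjusted p = 3.3e-09) and 1.18 in the combination (SE 0.078, adjusted p = 2.7e-16). The combination exceeded AKTi by 0.76 (SE 0.076) and EZH2i by 0.52 (SE 0.074, adjusted p = 2.3e-07).

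RRM2B (ENSG00000048392, chr8:102204502-102239118) encodes p53R2, the p53-inducible small subunit of ribonucleotide reductase that supplies deoxynucleotides outside S phase. Its normalized counts were 1515, 1337 and 1453 in DMSO, 1539, 1537 and 1459 under AKTi, 1419, 1458 and 1475 under EZH2i, and 1815, 1589.5 and 1652 with both drugs. DMSO, AKTi and EZH2i overlapped, and the combination lay above them. RRM2B rose by 0.25 in the combination (SE 0.062, adjusted p = 0.00044), while AKTi differed from DMSO by 0.08 (95% interval -0.04 to 0.21) and EZH2i by 0.03 (-0.10 to 0.15), neither of which passed the test. EZH2i was called above DMSO with library-size scaling (0.17, adjusted p = 0.015) and upper-quartile scaling (0.15, adjusted p = 0.034). The combination exceeded AKTi by 0.17 (adjusted p = 0.018) and EZH2i by 0.23 (adjusted p = 0.0024). The call against AKTi was lost on leaving out any AKTi library, EZH2i library A or combination library A (adjusted p = 0.057 to 0.17), and with a filter of 1 count in total (0.12).

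FAS (ENSG00000026103, chr10:88990582-89015785), the death receptor for FAS ligand, moved opposite to SESN1, TP53INP1, BTG2, GADD45A and ZMAT3. It was read at 130.2, 158 and 109 normalized counts in DMSO, 78.1, 77.4 and 88.1 under AKTi, 93.1, 84.4 and 73.0 under EZH2i, and 54.1, 59.2 and 58.1 with both drugs. DMSO lay above and the combination below all other libraries, and AKTi and EZH2i overlapped. FAS fell under AKTi (log2 fold change -0.68, SE 0.18, adjusted p = 0.0023), under EZH2i (-0.65, SE 0.18, adjusted p = 0.0016) and in the combination (-1.18, SE 0.18, adjusted p = 5.4e-07). The combination was below AKTi by -0.50 (SE 0.19, adjusted p = 0.025) and below EZH2i by -0.53 (SE 0.19, adjusted p = 0.021). The call against AKTi was lost with DESeq2 (adjusted p = 0.053), with upper-quartile scaling (0.095) or library size alone (0.10), without AKTi library C (0.073) and without combination library A (0.069), and that against EZH2i without EZH2i library A (0.063) and without combination library A (0.066). FAS had the fewest reads of the 9 genes, a mean of 88.8 counts per library, and ACTA2, which overlaps it by 758 bases on the opposite strand, held 29.6% as many.

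Divided by the gene length that the authors list, TP53INP1 was the most abundant of the 9 genes in DMSO, at 485 ± 22.9 normalized counts per kilobase (SD, n = 3). RRM2B (259 ± 16.3) and MDM2 (223 ± 7.40) followed, then BTG2 (119 ± 7.27), SESN1 (97.9 ± 10.7) and GADD45A (88.0 ± 6.34). SESN1 and GADD45A overlapped within their spread, as did MDM4 (53.2 ± 4.07) and ZMAT3 (50.9 ± 5.26), and FAS was lowest at 31.1 ± 5.73. In the combination SESN1 had become second, at 904 ± 25.3 per kilobase, behind TP53INP1 at 2423 ± 140.3, and stood above BTG2 (356 ± 12.9), RRM2B (304 ± 20.96), GADD45A (208 ± 3.94) and MDM2 (201 ± 8.32). GADD45A and MDM2 overlapped there within their spread. ZMAT3 (114 ± 5.81), MDM4 (58.5 ± 3.40) and FAS (13.4 ± 0.630) were the lowest 3.

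Each single agent was next read across the 9 genes, with all comparisons against DMSO sharing the same 3 DMSO libraries. AKTi raised 4 of the 9 genes (TP53INP1, SESN1, ZMAT3 and BTG2) and lowered 2 (FAS and MDM2), with backgrounds of 20.6% higher and 21.9% lower among all genes tested. EZH2i raised 5 of the 9 (those 4 and GADD45A) and lowered 3 (FAS, MDM2 and MDM4), with backgrounds of 32.6% and 31.5%. Scaling by library size alone turned the EZH2i background from 5421 genes higher and 5249 lower to 6630 and 4193, and that of AKTi from 3429 and 3644 to 4112 and 3023. The medians of the 9 log2 fold changes were 0.08 under AKTi and 0.66 under EZH2i, where the medians of all genes were 0.01 and 0.03. In the EZH2i arm tazemetostat had been present for 6 days beforehand, so drug and length of exposure cannot be told apart against AKTi. Compared directly, EZH2i was above AKTi in 5 genes (SESN1, GADD45A, BTG2, TP53INP1 and ZMAT3) and below it in MDM4 and MDM2. Of all genes tested, 25.4% and 25.1% were called in those directions. That balance, 4226 higher and 4170 lower, became 5104 and 3293 with library-size scaling. The largest of these direct differences was that of SESN1, at 2.06 (SE 0.067, adjusted p = 2.4e-24). That of ZMAT3, at 0.24 (adjusted p = 0.011), was lost without AKTi library B (adjusted p = 0.073), AKTi library C (0.097) or EZH2i library B (0.076).

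**Figure D2:**
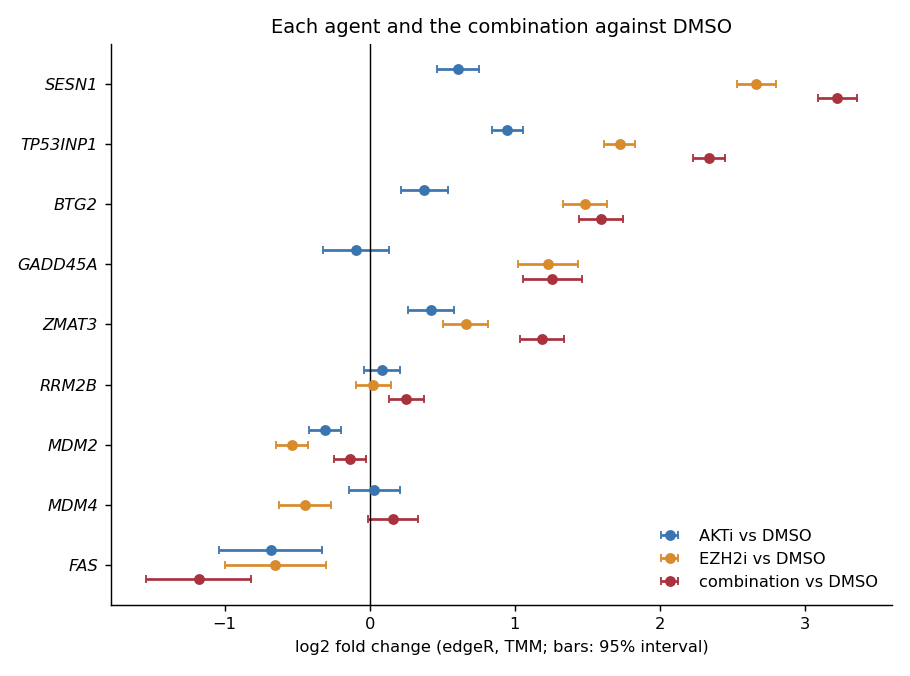
Log2 fold changes against DMSO (x axis) for the 9 genes (rows) under AKTi, EZH2i and the combination. Points are edgeR estimates after TMM scaling and bars their 95% intervals. The combination reaches 3.22 for SESN1 and -1.18 for FAS, the AKTi interval of GADD45A spans 0, and the MDM2 intervals all lie below 0.

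The combination was then set against each agent alone, to see what the other drug added. Against AKTi, 7 of the 9 genes were higher and 1 (FAS) was lower, and 32.1% of all genes tested were called higher and 32.1% lower. With library-size scaling those shares, 5344 and 5343 genes, became 6544 and 4330. Without AKTi library C the count of genes called in this comparison fell from 8 to 5. Against EZH2i, 6 genes were higher (TP53INP1, MDM4, SESN1, ZMAT3, MDM2 and RRM2B) and FAS was lower, with backgrounds of 21.1% and 25.7%. The 5 genes TP53INP1, SESN1, ZMAT3, MDM2 and RRM2B were higher in the combination than in both single-agent arms, and FAS was lower than in both. Among all genes tested, 15.5% were higher than in both arms and 19.7% lower.

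Whether the agents acted together more or less than the sum of their separate log2 effects was tested as an interaction term. It passed for 3 of the 9 genes, in which 2 lay above the sum and 1 below, where 10.7% of all genes tested were above and 17.5% below. For MDM2 the single-agent changes summed to -0.84 and the combination stood at -0.13, a difference of 0.71 (SE 0.080, adjusted p = 9.5e-09). For MDM4 the sum was -0.42 and the combination 0.16, a difference of 0.58 (SE 0.13, adjusted p = 0.00059). Both p53 inhibitors thus responded differently to ipatasertib with tazemetostat present: MDM2 fell by 0.31 when AKTi was given alone and was 0.40 higher when AKTi was added to EZH2i, and for MDM4 these differences were 0.03 and 0.61. TP53INP1 lay below the sum, 2.34 against 2.67, a difference of -0.33 (SE 0.076, adjusted p = 0.00096). For SESN1 the sum of 3.27 and the observed 3.22 differed by -0.05 (95% interval -0.24 to 0.13), for ZMAT3 by 0.10 (-0.11 to 0.32) and for FAS by 0.15 (-0.36 to 0.67), none of which passed the test. BTG2 differed by -0.26 (adjusted p = 0.066) and was called on leaving out DMSO library C, AKTi library A or EZH2i library A (adjusted p = 0.025 to 0.043).

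**Figure D3:**
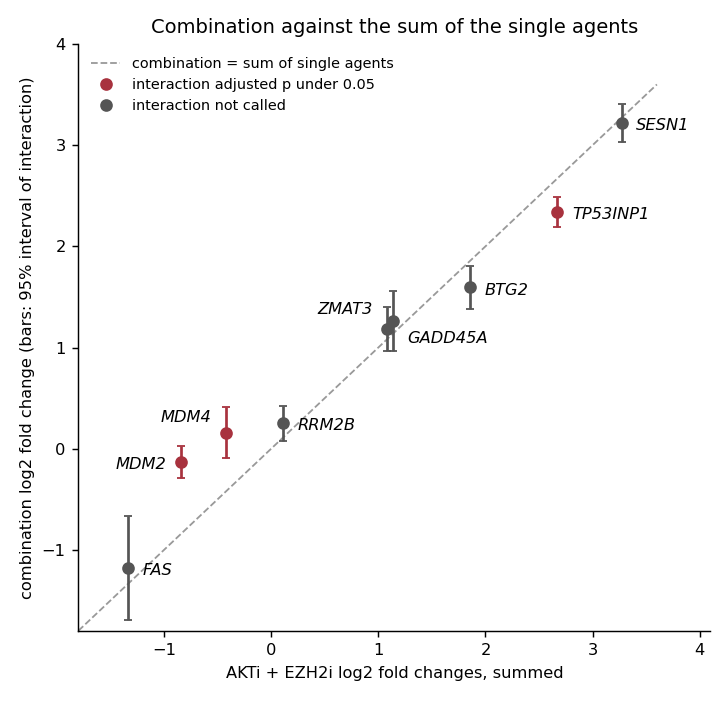
Combination log2 fold change against DMSO (y axis) against the sum of the AKTi and EZH2i log2 fold changes (x axis) for the 9 genes. The dashed line marks equality, bars are 95% intervals of the interaction term, and red points passed its test: MDM2 and MDM4 lie above the line by 0.71 and 0.58, and TP53INP1 lies below it by 0.33.

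Across the 12 libraries the genes fell into patterns that Pearson's r of log2 CPM describes, the 12 points being 4 arms of 3 that share their treatments. SESN1 and BTG2 ran nearly in parallel (r = 0.993), and SESN1 was close to TP53INP1 (0.965) and GADD45A (0.961). FAS ran opposite to ZMAT3 (-0.911) and TP53INP1 (-0.898). MDM2 and MDM4 resembled each other (0.749) more than either resembled SESN1 (-0.402 and -0.179). Among all other protein-coding genes tested, those most like SESN1 were SLC5A1 and MFSD6 (both 0.998), those most like BTG2 were RAB3B (0.998) and DAPK1 (0.997), and those most like TP53INP1 were ALDH1A3 (0.997) and LUZP2 (0.996). ZMAT3 was most like WDFY3 (0.993) and MAP2K5 (0.990), GADD45A most like HIST1H2BC (0.993) and SLPI (0.992), and MDM2 most like MAT2A (0.988) and WARS (0.973). The closest genes were HAUS1 (0.977) and GEMIN2 (0.973) for FAS, ICA1 (0.949) and NCOA4 (0.948) for RRM2B, and NAMPT (0.935) and NCR3LG1 (0.930) for MDM4.

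Other genes known to be activated by p53 did not share a direction in the combination. Of 84 listed genes 79 were tested, and 35 (44.3%) were higher, 34 (43.0%) lower and 10 not called, where 38.0% of all genes were higher and 35.2% lower. Their median log2 fold change was 0.10 and that of all genes 0.06. Under AKTi 25 (31.6%) were higher and 26 (32.9%) lower, against 20.6% and 21.9% of all genes, and under EZH2i 31 (39.2%) were higher and 33 (41.8%) lower, against 32.6% and 31.5%. Among 13 genes of cell cycle arrest and feedback, 6 (46.2%) rose and 5 (38.5%) fell. The risers with the largest changes were PLK2, a kinase of centriole duplication (3.91), and BTG1, the closest relative of BTG2 (3.35), and the largest falls were those of E2F7, a repressor of E2F targets (-4.45), and SFN, the checkpoint protein 14-3-3 sigma (-2.37, SE 0.91). SFN was near the detection floor, at 1.20 to 7.66 normalized counts in DMSO and 0 to 1.64 in the combination, so the size of its change is poorly known. CDKN1A, which encodes the CDK inhibitor p21 and was named after its values were seen, fell under AKTi from 1248 ± 71.5 to 732 ± 71.9 normalized counts and rose to 2181 ± 84.4 under EZH2i and 2839 ± 189.7 in the combination (SD, n = 3).

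The death and repair branches were also divided. Among 18 apoptosis genes, 9 (50%) rose and 9 (50%) fell, where 38.0% of all genes tested were higher and 35.2% lower. TNFRSF10C, a decoy receptor for TRAIL that was read at only 4.38 to 9.56 normalized counts in DMSO (2.58), and BBC3, the BH3-only protein PUMA (2.12), rose most, and PMAIP1, the BH3-only protein NOXA (-1.56), and TRIAP1, an inhibitor of apoptosis (-1.36), fell most. Of 6 DNA repair genes only XPC, a sensor of nucleotide excision repair, rose (0.91), a share of 16.7%. The other 5 (83.3%) fell, among them ASCC3 (-1.02) and POLH, a translesion polymerase (-0.92). Of 18 metabolism, autophagy and stress genes, 6 (33.3%) rose and 7 (38.9%) fell, shares near those of all genes tested. RETSAT (1.40) and SESN2 (1.21) were at the top, and PANK1 (-1.32) and CMBL (-1.30) at the bottom. The remaining 24 genes gave 13 rises (54.2%), led by ORAI3 (2.77) and TGFA (2.63), and 8 falls (33.3%), led by EPHA2 (-1.72) and HSPA4L (-1.59).

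Of 25 genes tested that act on p53 or encode it, 8 (32%) were higher and 14 (56%) lower in the combination, where 38.0% and 35.2% of all genes tested were, and their median was -0.35. HIPK2, a kinase that phosphorylates p53 (1.30), and CREBBP, an acetyltransferase coactivator (1.18), rose most, and AURKA (-3.31) and CHEK2, a checkpoint kinase (-3.06), fell most. Genes of the cell cycle that p53 is known to lower through p21 and the DREAM complex moved one way: all 21 tested fell in the combination, with a median of -2.82. The falls ran from CDK1 (-4.35) and AURKB (-4.14) to TOP2A (-2.48) and PRC1 (-1.79, SE 0.39). PRC1 had few counts, 25.3 to 38.2 normalized counts in DMSO and 4.92 to 11.6 in the combination, so the size of its fall is less well known. All 21 genes were lower than in both single-agent arms, where 19.7% of all genes tested were. AKTi alone lowered 20 of the 21 and EZH2i alone 20, against 21.9% and 31.5% of all genes tested. CDKN1A, which encodes p21, changed by -0.76 under AKTi, 0.82 under EZH2i and 1.21 in the combination. The part of p53 or p21 in these falls was not tested.

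**Figure D4:**
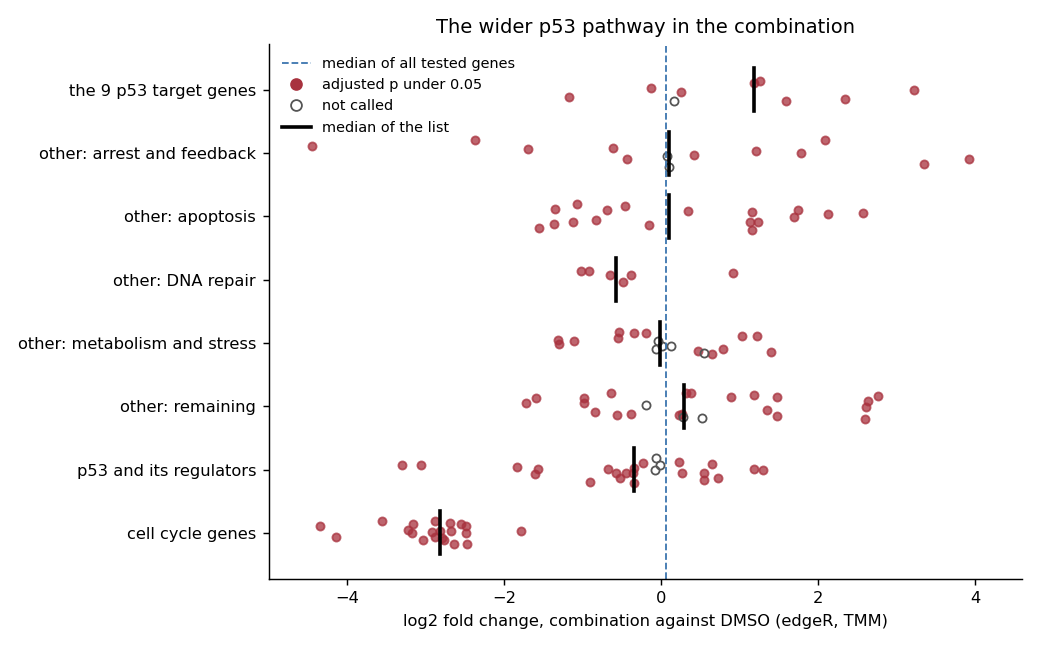
Log2 fold changes, combination against DMSO (x axis), of the 9 genes and of the wider pathway lists (rows); points are genes, scattered vertically only to separate them, filled where the adjusted p is under 0.05. Black bars are list medians and the dashed line is the median of all genes tested, 0.06. The 9 genes have a median of 1.18 and the other p53-activated lists straddle 0. The cell cycle genes run from CDK1 at -4.35 to PRC1, which had few counts, at -1.79.

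The relatives of the 9 genes were followed to see whether a family moved together. Of 12 genes tested, 7 (58.3%) rose and 5 (41.7%) fell in the combination, where 38.0% and 35.2% of all genes did. ZMAT1 (3.69) and BTG1 (3.35) were at the top and RRM2 (-5.10) and RRM1 (-1.56) at the bottom. The counts include RRM1, the large subunit of ribonucleotide reductase, which is a partner of RRM2B and not of its family. The subunits of ribonucleotide reductase parted: RRM2, the small subunit of S phase, went from 2904 ± 105.5 normalized counts in DMSO to 1156 ± 43.9 under AKTi, 992 ± 92.9 under EZH2i and 83.6 ± 2.91 in the combination (SD, n = 3), while RRM2B rose by 0.25 on the log2 scale. The sestrins, named here after their values were seen, all rose in the combination and parted under the single agents: SESN3 rose by 0.65 under AKTi, 1.90 under EZH2i and 1.84 in the combination, whereas SESN2 changed by -0.46 under AKTi and -0.31 under EZH2i and rose by 1.21 in the combination. SESN2 normalized counts were 757 ± 57.5 in DMSO, 549 ± 34.4 under AKTi, 609 ± 11.3 under EZH2i and 1736 ± 68.3 with both drugs. The interaction term of SESN2 was 1.98 (SE 0.10, adjusted p = 6.6e-18), where that of SESN1 was -0.05 and did not pass the test. BTG1, like BTG2, was above DMSO in every treated arm, going from 1583 ± 36.1 in DMSO to 3788 ± 205 under AKTi, 10299.7 ± 713 under EZH2i and 15909 ± 809.6 with both drugs. From EZH2i to the combination BTG1 was 0.64 higher (edgeR, adjusted p = 2.7e-12), whereas the BTG2 difference of 0.11 did not pass the test. TNFRSF10B, a death receptor of the same superfamily as FAS that was also named after its values were seen, fell under AKTi (-0.25), under EZH2i (-0.59) and in the combination (-0.15). Unlike FAS, it was higher in the combination than in EZH2i (0.43, edgeR, adjusted p = 2.8e-08). How its small difference between the combination and DMSO depends on the scaling was not tested.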

How the data were processed

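RNA-seq libraries of C4.2B cells were analysed from the tables of counts and normalized values that the authors deposited, 12 libraries in 4 arms of 3. The deposited raw counts per gene are from HTSeq, which the authors ran on STAR alignments to hg38, and DESeq2 served for their normalization. Versions, annotation and strand setting are not given in the sources used here. The deposited normalized signal was checked to equal each count divided by a size factor per library. Gene length, as the authors list it, served only for levels per kilobase. Libraries of 1 arm differed by more than sampling noise (chi-square 2.45 to 7.01 per gene).

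Raw counts were tested with edgeR 4.0.16 in R 4.3.3 (filterByExpr with a minimum count of 10 and a minimum total of 15, TMM scaling, quasi-likelihood test, all 12 libraries, 1 mean per arm), after tests on simulated data. Calls use a Benjamini-Hochberg adjusted p under 0.05 over 16646 genes. SE is the absolute log2 fold change divided by the square root of F, and intervals are 1.96 SE to each side. Alternatives were DESeq2 1.42.0, other scalings and filters, the arms compared alone, a replicate block and leaving out each library. The genes, lists and tests were chosen with earlier results of these data known. Beyond the 9 genes, those named from the lists are the 2 largest and 2 smallest called changes of each list in the combination. Also named are the 2 protein-coding genes most like each of the 9 by Pearson's r of log2 CPM, with a prior count of 2. Outside this rule, CDKN1A, TNFRSF10B, and SESN2 and SESN3 as relatives of SESN1 were named after their values were seen. A listed gene was left out where its symbol matched 2 rows. Of the luminal markers planned, 1 is not reported here.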

Additional observations from a re-analysis of the deposited data

Results flagged for a closer look

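The effect of AKTi differed with and without tazemetostat for 3 of the 9 genes, by the interaction term in edgeR, where 10.7% of all genes tested were called above the sum of the single agents and 17.5% below it. The difference was 0.71 on the log2 scale for MDM2 (adjusted p = 9.5e-09), 0.58 for MDM4 (adjusted p = 0.00059) and -0.33 for TP53INP1 (adjusted p = 0.00096). Each of the 3 passed the test under all 19 alternatives run for it, with ranges of 0.64 to 0.77 for MDM2, 0.45 to 0.68 for MDM4 and -0.39 to -0.27 for TP53INP1. With 3 libraries in each arm, single libraries that stand apart were not looked for by a rule.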

How the results depend on the processing

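Over 20 alternatives, 1198 of 1251 values of the 9 genes kept their direction and side of the threshold, 22 lost a call, 11 gained one and 20 changed sign. With scaling by library size only or by upper quartile, which moved the median of all genes in the combination against DMSO from 0.06 to 0.26 and 0.25, MDM2 stood at 0.063 and 0.051 against DMSO, and RRM2B in EZH2i against AKTi at 0.027 and 0.00246. The cause was not tested. Library-size scaling also tilted the calls over all genes upwards in all 6 comparisons between arms. Leaving out 1 library at a time gave ranges that crossed 0 for small differences: MDM4 in AKTi against DMSO -0.044 to 0.062, RRM2B in EZH2i against DMSO -0.070 to 0.065, GADD45A in the combination against EZH2i -0.028 to 0.088, FAS in EZH2i against AKTi -0.073 to 0.100, and the interaction of SESN1 -0.13 to 0.057. The number of genes called in the combination against AKTi ranged from 5 to 8. Under all 20 alternatives SESN1, TP53INP1, BTG2, GADD45A and ZMAT3 stayed called above DMSO in the combination, and FAS below it. Same-letter deviations correlated at -0.10 to 0.14 between arms and different-letter ones at -0.11 to 0.13. With 3 libraries in each arm, this cannot tell whether the letters A, B and C pair the libraries. With the letter as a replicate block, 8 of the 9 genes were called in the combination against DMSO, as without it, and no call of the 9 genes changed.
Of the 9 genes FAS had the fewest reads, a mean of 88.8 counts per library.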
